A study of Mus musculus with 28 samples.

Results

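The autophagy machinery is described here by 10 genes whose products start, build and load the autophagosome, namely Ulk1, Atg13, Becn1, Atg9a, Wipi1, Atg7, Atg4b, Map1lc3b, Gabarapl1 and Sqstm1. They were taken by gene symbol, and each was represented by its annotated probe set of highest mean level. All 10 of 10 were measured on both array types of the study, among 18974 genes present on both. Total RNA was hybridised from 4 tissues of female mice of the inbred strain C57BL/6J at 24 or 6 months of age. All animals lived in groups on standard chow and went without food overnight before tissue collection, at 103 weeks for the older and 24 weeks for the younger age, so no fed animal is part of the comparison. One array type, with 19928 genes, held 3 arrays per age of liver and of the thigh muscle quadriceps. Another, with 30063 genes, held 4 arrays per age of heart and of the calf muscle gastrocnemius. The labels do not say whether each array is a separate animal or whether tissues were taken from shared animals. All p-values therefore rest on the variation among these samples alone, and that variation may be technical.

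Autophagy encloses part of the cytoplasm in a double membrane, the autophagosome, which then fuses with a lysosome where the content is degraded. A kinase complex around ULK1 starts the process when nutrients are short, a lipid kinase complex with beclin 1 marks the site of membrane growth, and a conjugation system attaches ATG8 proteins such as LC3B and GABARAPL1 to the lipid phosphatidylethanolamine in the growing membrane. Cargo receptors such as p62 tie ubiquitinated material to these ATG8 proteins and are degraded along with it. In liver, muscle and heart the pathway supplies amino acids in fasting and clears damaged mitochondria and protein aggregates. Arrays measure the RNA of these genes and not the flux through the pathway.

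All values below are on the log2 scale, and differences are 24 months minus 6 months or, between tissues, the first named tissue minus the second. The tissue labels were checked on the means of whole marker lists at both ages. The 8 hepatocyte markers averaged 13.55 to 13.65 in liver and 5.96 to 8.41 in quadriceps. The 8 skeletal myofibre markers averaged 13.58 to 13.67 in quadriceps and 5.78 to 6.18 in liver. They averaged 13.04 to 13.22 in gastrocnemius and 6.97 to 7.13 in heart. The 7 measured cardiomyocyte markers averaged 11.68 to 12.04 in heart and 6.02 to 6.43 in gastrocnemius. The 3 markers named next per tissue were picked for their high mean there. Alb, Apoa1 and Ttr averaged 13.84 to 14.13 in liver, Acta1, Ckm and Tnnt3 13.85 to 14.23 in quadriceps, Acta1, Myh4 and Ckm 13.08 to 13.59 in gastrocnemius, and Tnnt2, Myh6 and Myl3 11.52 to 13.34 in heart. The liver arrays differed by age in their overall distribution: array medians were 6.54 to 6.62 at 24 months and 6.47 to 6.48 at 6 months, and interquartile ranges 2.43 to 2.66 and 2.75 to 2.79. Array medians spanned 6.36 to 6.40 in quadriceps, 5.27 to 5.35 in heart and 4.88 to 4.97 in gastrocnemius. Some arrays stood apart in markers of another tissue. The 5 measured exocrine pancreas markers averaged 9.57 in replicate 2 of 24-month liver and 6.28 to 6.75 in the other 5 liver arrays. The 8 hepatocyte markers averaged 8.41 in replicate 1 of 24-month quadriceps and 5.96 to 7.05 in its other arrays, and 6.21 in replicate 2 of 6-month heart and 4.89 to 5.57 in the other heart arrays. The 5 atrial markers spanned 7.48 to 10.13 in 24-month and 8.93 to 10.14 in 6-month hearts. Some lists did not overlap between the ages in heart. The hepatocyte markers averaged 4.89 to 5.09 at 24 months and 5.175 to 6.21 at 6 months. The endothelial markers averaged 9.03 to 9.09 and 9.11 to 9.16, and the exocrine pancreas markers 5.45 to 5.65 and 5.41 to 5.44. The part of these lists in the heart values was not tested.

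Promoters are shown for 3 members on which the results turn: Wipi1, with the largest age difference of the 10 in liver, Atg7, with the largest differences between tissues in the deposited values, and Gabarapl1, the member that varied most between arrays of the same group in both skeletal muscles. RefSeq promoter sequences of build GRCm38.p6 were at hand for 9 of the 10 members, each 250 bases before to 50 after the gene start. Those below lie at chr11:109611340-109611639 on the minus strand for Wipi1, chr6:114670846-114671145 on the plus strand for Atg7 and chr6:129532942-129533241 on the plus strand for Gabarapl1. Capitals mark 3 short motifs, searched on both strands: CACGTG, the palindromic E-box at the core of sites bound by TFEB, AAACAA or TTGTTT, the core of many forkhead binding sites, and CCGCCC or GGGCGG, the GC box.
Wipi1: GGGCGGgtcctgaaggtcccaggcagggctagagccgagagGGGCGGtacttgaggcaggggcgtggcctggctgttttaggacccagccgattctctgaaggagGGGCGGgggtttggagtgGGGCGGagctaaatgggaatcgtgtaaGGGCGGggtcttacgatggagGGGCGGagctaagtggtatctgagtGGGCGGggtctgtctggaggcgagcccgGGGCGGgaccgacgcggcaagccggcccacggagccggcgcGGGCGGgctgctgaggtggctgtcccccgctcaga
Atg7: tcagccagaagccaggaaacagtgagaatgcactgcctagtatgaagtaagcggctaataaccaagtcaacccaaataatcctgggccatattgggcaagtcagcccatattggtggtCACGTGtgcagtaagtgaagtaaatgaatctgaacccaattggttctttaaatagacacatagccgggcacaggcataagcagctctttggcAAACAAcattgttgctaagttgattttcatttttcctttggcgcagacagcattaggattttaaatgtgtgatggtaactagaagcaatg
Gabarapl1: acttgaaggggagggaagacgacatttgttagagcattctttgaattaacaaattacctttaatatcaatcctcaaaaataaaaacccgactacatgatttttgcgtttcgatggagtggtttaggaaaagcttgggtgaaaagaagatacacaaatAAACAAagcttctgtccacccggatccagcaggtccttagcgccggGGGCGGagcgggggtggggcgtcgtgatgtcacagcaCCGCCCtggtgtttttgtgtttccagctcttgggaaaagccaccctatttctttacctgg
Wipi1 held 9 GC boxes and neither of the other motifs. Atg7 was the 1 member of 9 with an E-box, whose first base lay at -132 from the start, and it also held 1 forkhead-type motif at -40. Gabarapl1 held 1 forkhead-type motif at -93 and 2 GC boxes, the nearer at -10. Over all 32851 promoters in the table the E-box was in 7.15%, against 1 of 9 members, the forkhead-type motif in 20.7%, against 3 of 9, and the GC box in 35.7%, against 6 of 9. A match is a string of letters in this window and does not show that a factor binds there.

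The first question was whether the 10 genes differ with age in any of the tissues. None of the 10 passed an adjusted p of 0.05 over all genes in limma in liver, quadriceps, heart or gastrocnemius. In liver, 8 of 10 had lower means at 24 months (45.1% of all genes), led by Wipi1, Atg4b and Atg13, and the median difference of the 10 was -0.12. In gastrocnemius, 9 of 10 had lower means at 24 months (44% of all genes), led by Ulk1 and Atg9a, with a median of -0.13. Quadriceps had a median of 0.01 with 4 of 10 lower (46.4% of all genes), and heart 0.001 with 5 of 10 lower (43.2%).

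These counts stand beside those of all genes. In liver 0.326% of genes passed the adjusted threshold, in quadriceps 0.00502%, in heart 0.00665% and in gastrocnemius 0.00998%, so few genes of any kind passed it. The unadjusted counts were 3 of 10 lower (14.4% of all genes) and 0 higher (18.4%) in liver, 1 of 10 lower (3.26%) and 1 of 10 higher (3.8%) in quadriceps, 0 of 10 in heart (5.99% in either direction) and 5 of 10 lower (9.05%) and 0 higher (7.44%) in gastrocnemius. The 24-month arrays lay wholly below the 6-month arrays for 6 of 10 members in liver (17.4% of all genes), 1 of 10 in quadriceps (5.33%), 0 of 10 in heart (1.36%) and 3 of 10 in gastrocnemius (4.78%). They lay wholly above them for 2 of 10 in quadriceps (6.69%) and for none in liver (18.7%), heart (1.94%) and gastrocnemius (3.86%). All 10 members belong to the brighter genes, with a mean at or above the median of all values. Among the 10704 such genes in liver the median difference was -0.09, whereas the median over all liver genes was 0.03. Of these brighter liver genes 66.1% had lower means at 24 months, 24.3% were lower at an unadjusted p under 0.05 and 29.8% did not overlap in that direction. Among the 18839 such genes in gastrocnemius the median was -0.01, and over all genes it was 0.02. Of these brighter genes 53.5% had lower means, 13.2% were lower at an unadjusted p under 0.05 and 7.14% did not overlap.

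**Figure D1:**
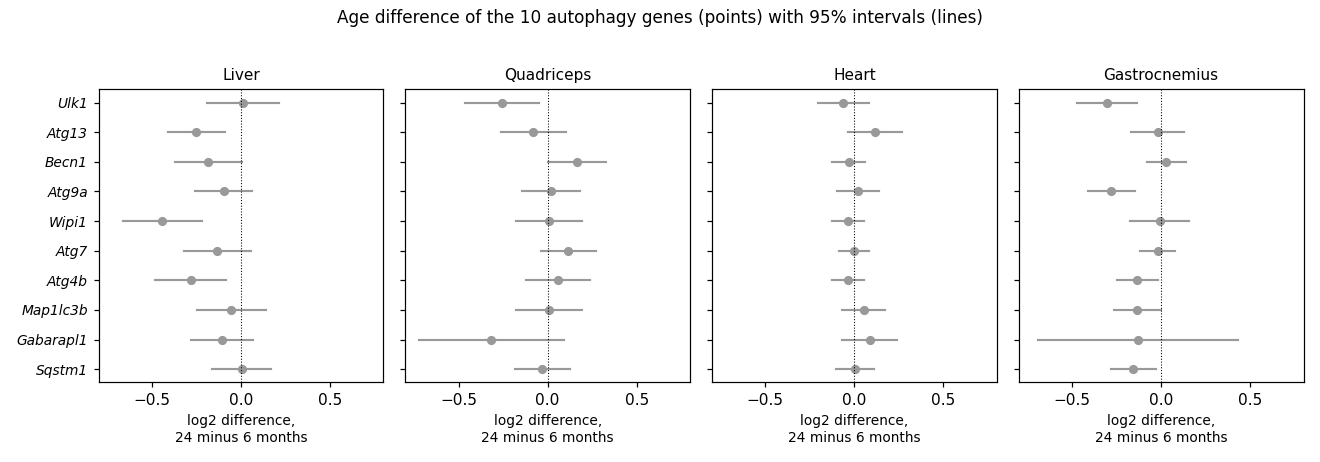
Difference between 24 and 6 months on the log2 scale (horizontal axis) for the 10 autophagy genes (rows) in 4 tissues (panels); points are limma estimates and lines 95% intervals. Heart intervals lie between -0.20 and 0.27, the interval of Wipi1 in liver reaches down to -0.67, and that of Gabarapl1 in gastrocnemius runs from -0.69 to 0.43.

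Ulk1 and Atg13 belong to the kinase complex that starts autophagosome formation, Ulk1 as its catalytic subunit and Atg13 as the adaptor that links the kinase to its scaffold. In gastrocnemius Ulk1 had 9.41, 9.36, 9.40 and 9.18 in the 24-month arrays, against 9.78, 9.71, 9.55 and 9.53 in the 6-month arrays. Every older array lay below every younger one, a difference of -0.305 ± 0.08 (SE), or 1.24-fold, with an adjusted p of 0.123. Quadriceps Ulk1 had 10.51, 10.41 and 10.25 at 24 months, against 10.52, 10.72 and 10.70 at 6 months. Here too the ages did not overlap, although the nearest arrays were 10.51 and 10.52, and the difference of -0.26 ± 0.09 had an unadjusted p of 0.0216 and an adjusted p of 0.628. Without replicate 1 of 24-month quadriceps, the array with raised hepatocyte markers, it was -0.32 with an adjusted p of 0.545. The 6 fibroblast markers averaged 8.74 to 8.87 in 24-month and 8.92 to 9.05 in 6-month quadriceps without overlap, 3 of them lower at an unadjusted p under 0.05 and none past the adjusted threshold, and their part in this or the other quadriceps differences was not tested. Liver and heart Ulk1 differed by 0.01 ± 0.09 and -0.06 ± 0.06, with overlapping ages. Whether the skeletal muscles and the other tissues differ in this is tested further on.

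Atg13 showed its separation in liver, with 9.59, 9.60 and 9.60 at 24 months, against 9.84, 9.83 and 9.87 at 6 months. The arrays of each age lay close together and the ages did not overlap, and the fitted difference was -0.25 ± 0.07, or 1.19-fold, with an adjusted p of 0.0686. The standard error is wider than the spread of the gene's own arrays because limma draws each gene's variance toward that of all genes. In quadriceps Atg13 differed by -0.08 ± 0.08, in heart by 0.12 ± 0.07 and in gastrocnemius by -0.02 ± 0.07. The ages overlapped in all 3, and the highest heart value, 9.43, belonged to replicate 3 of 24 months.

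Becn1 encodes beclin 1, the regulatory subunit of the lipid kinase complex that makes phosphatidylinositol phosphate at the growing membrane. It had 8.17, 8.33 and 8.34 in 24-month livers, against 8.53, 8.46 and 8.40 in 6-month livers. In quadriceps the order was the other way, with 8.35, 8.30 and 8.29 at 24 months, against 8.21, 8.19 and 8.05 at 6 months. Neither pair of groups overlapped, and the differences were -0.18 ± 0.08 in liver (adjusted p = 0.162) and 0.16 ± 0.07 in quadriceps (adjusted p = 0.703). The highest quadriceps value, 8.35, was that of replicate 1 of 24 months, the array with raised hepatocyte markers. In heart and gastrocnemius Becn1 stayed within 7.49 to 7.59 and 7.71 to 7.86 over both ages, and the 95% intervals of its differences ran from -0.12 to 0.06 and from -0.08 to 0.14.

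Atg9a and Wipi1 act on the membrane itself. Atg9a is the transmembrane scramblase whose vesicles seed the autophagosome, and Wipi1 is a beta-propeller protein that reads the phosphoinositide made by the beclin 1 complex. In gastrocnemius Atg9a had 8.69, 8.82, 8.82 and 8.82 at 24 months, against 8.94, 9.13, 9.14 and 9.06 at 6 months. The ages did not overlap, and the difference of -0.28 ± 0.06, or 1.21-fold, had an unadjusted p of 0.000915 and an adjusted p of 0.103, the lowest of the 10 in that muscle. In liver Atg9a had 8.62, 8.64 and 8.65 at 24 months, against 8.72, 8.74 and 8.74 at 6 months, which separated the ages by a smaller amount, -0.10 ± 0.07 (adjusted p = 0.354). Quadriceps and heart Atg9a each differed by 0.02, and the ages overlapped in both.

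Wipi1 had the largest age difference of the 10 members in any of the 4 tissues. It had 7.45, 7.42 and 7.61 in 24-month livers, against 7.87, 7.84 and 8.10 in 6-month livers. The difference of -0.44 ± 0.10, or 1.36-fold, with a 95% interval from -0.67 to -0.22, had an unadjusted p of 0.00146 and an adjusted p of 0.0543. In the other tissues Wipi1 barely differed between the ages, by 0.01 ± 0.08 in quadriceps, -0.04 ± 0.04 in heart and -0.01 ± 0.07 in gastrocnemius, and the ages overlapped in each. Because whole tissue was assayed, fewer cells of a type and less RNA per cell cannot be told apart in this or any other difference.

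Atg7 is the E1-like enzyme that activates both ubiquitin-like proteins of the conjugation system, and Atg4b is the cysteine protease that trims ATG8 proteins before conjugation and frees them afterwards. Atg4b had 7.44, 7.37 and 7.60 in 24-month livers, against 7.71, 7.72 and 7.83 in 6-month livers. In gastrocnemius it had 7.05, 6.92, 7.07 and 6.94 at 24 months, against 7.16, 7.14, 7.12 and 7.09 at 6 months. The ages did not overlap in either tissue, with differences of -0.28 ± 0.09 (adjusted p = 0.0783) in liver and -0.13 ± 0.05 (adjusted p = 0.251) in gastrocnemius. Heart and quadriceps Atg4b differed by -0.035 ± 0.04 and 0.06 ± 0.08 and overlapped.

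Atg7 had 9.11, 9.25 and 9.20 in 24-month livers, against 9.40, 9.23 and 9.33 in 6-month livers. These overlapped by 1 array, with a difference of -0.13 ± 0.08 (adjusted p = 0.279). In quadriceps it had 7.67, 7.53 and 7.55 at 24 months, against 7.49, 7.45 and 7.46 at 6 months. These did not overlap, and the difference was 0.12 ± 0.07 (adjusted p = 0.772). The highest value, 7.67, was that of replicate 1 of 24 months, the array with raised hepatocyte markers, whose part in this difference was not tested. Heart and gastrocnemius Atg7 stayed within 7.01 to 7.06 and 6.26 to 6.37 over both ages.

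Map1lc3b and Gabarapl1 encode ATG8 proteins, the ubiquitin-like proteins that coat the autophagosome membrane. Map1lc3b, whose product LC3B is the usual marker of autophagosomes, had 7.78, 7.77, 7.81 and 7.61 in 24-month gastrocnemius, against 7.95, 7.89, 7.85 and 7.81 in 6-month gastrocnemius. The groups touched at 7.81, and the difference of -0.13 ± 0.06 had an adjusted p of 0.295. In liver it had 11.20, 11.11 and 11.16 at 24 months, against 11.08, 11.25 and 11.30 at 6 months. The older livers lay inside the range of the younger, and the difference was -0.05 ± 0.09, with 0.01 ± 0.08 in quadriceps and 0.05 ± 0.05 in heart. A second Map1lc3b probe set on the liver and quadriceps arrays differed by -0.03 ± 0.08 in liver and 0.02 ± 0.08 in quadriceps.

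Gabarapl1 varied more between arrays of one group than the other members did in both skeletal muscles. In gastrocnemius it had 9.86, 9.75, 9.72 and 8.77 at 24 months, against 9.94, 9.90, 9.65 and 9.13 at 6 months. One array of each age lay well below its group, replicate 4 in both, and the difference of -0.13 had a standard error of 0.25. Without replicate 4 of 24 months it was 0.12, and without replicate 4 of 6 months -0.305. In quadriceps Gabarapl1 had 11.17, 10.88 and 10.73 at 24 months, against 10.87, 11.28 and 11.58 at 6 months. The ages overlapped, and the interval of the difference, -0.32, ran from -0.72 to 0.09. In liver it was steady, with 11.79, 11.88 and 11.94 at 24 months, against 11.99, 11.98 and 11.96 at 6 months, a difference of -0.11 ± 0.08 without overlap (adjusted p = 0.344). Heart Gabarapl1 differed by 0.085 ± 0.07 and overlapped.

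Sqstm1 encodes p62, the receptor that binds ubiquitinated cargo and ATG8 proteins. In gastrocnemius it had 10.94, 10.77, 10.93 and 10.87 at 24 months, against 11.11, 11.05, 10.94 and 11.03 at 6 months. The groups met at 10.94, and the difference of -0.155 ± 0.06 had an unadjusted p of 0.0227 and an adjusted p of 0.235. In liver Sqstm1 had 12.22, 12.28 and 12.27 at 24 months, against 12.24, 12.28 and 12.24 at 6 months, and the 95% interval of the difference ran from -0.16 to 0.17. Quadriceps and heart differed by -0.03 ± 0.07 and 0.005 ± 0.05, with overlapping ages.

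**Figure D2:**
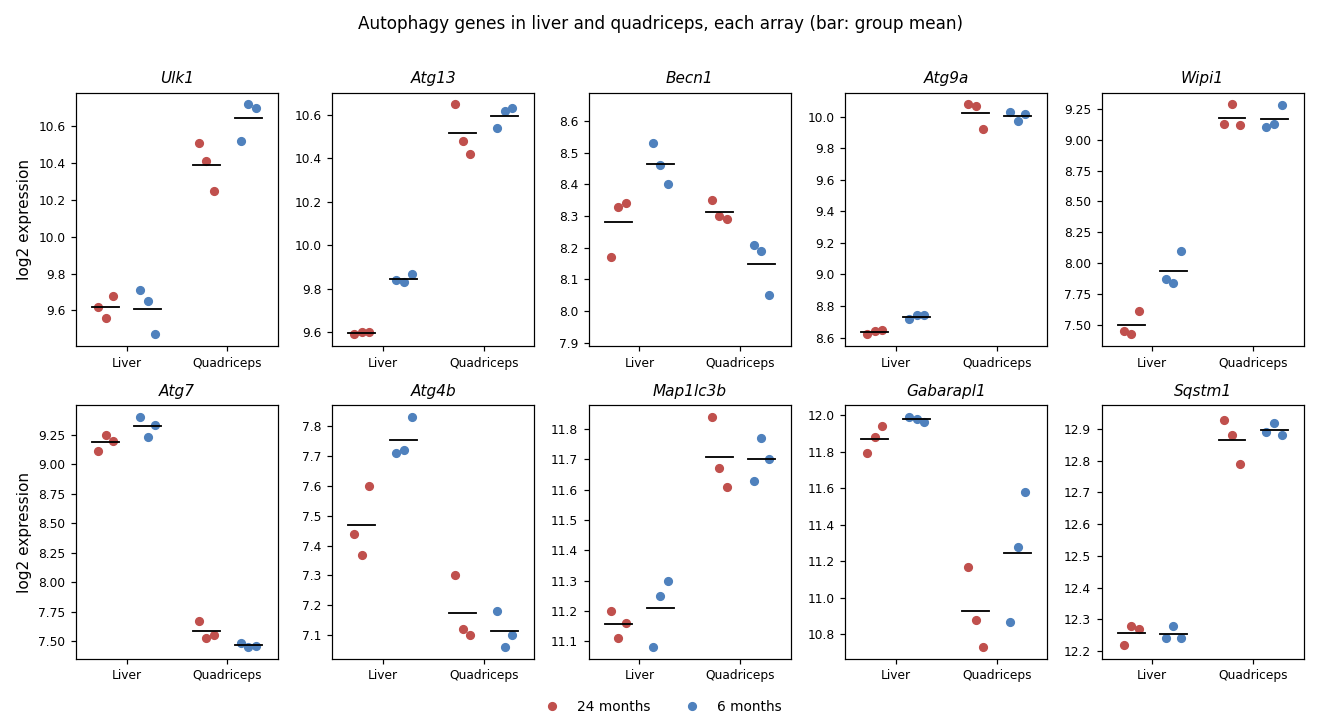
Log2 expression (vertical axis, scaled per gene) of the 10 autophagy genes in each liver and quadriceps array at 24 months (red) and 6 months (blue), 3 arrays per group, with bars at group means. In liver the red points lie below the blue ones for Atg13, Becn1, Atg9a, Wipi1, Atg4b and Gabarapl1, as with Wipi1 at 7.42 to 7.61 against 7.84 to 8.10.

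**Figure D3:**
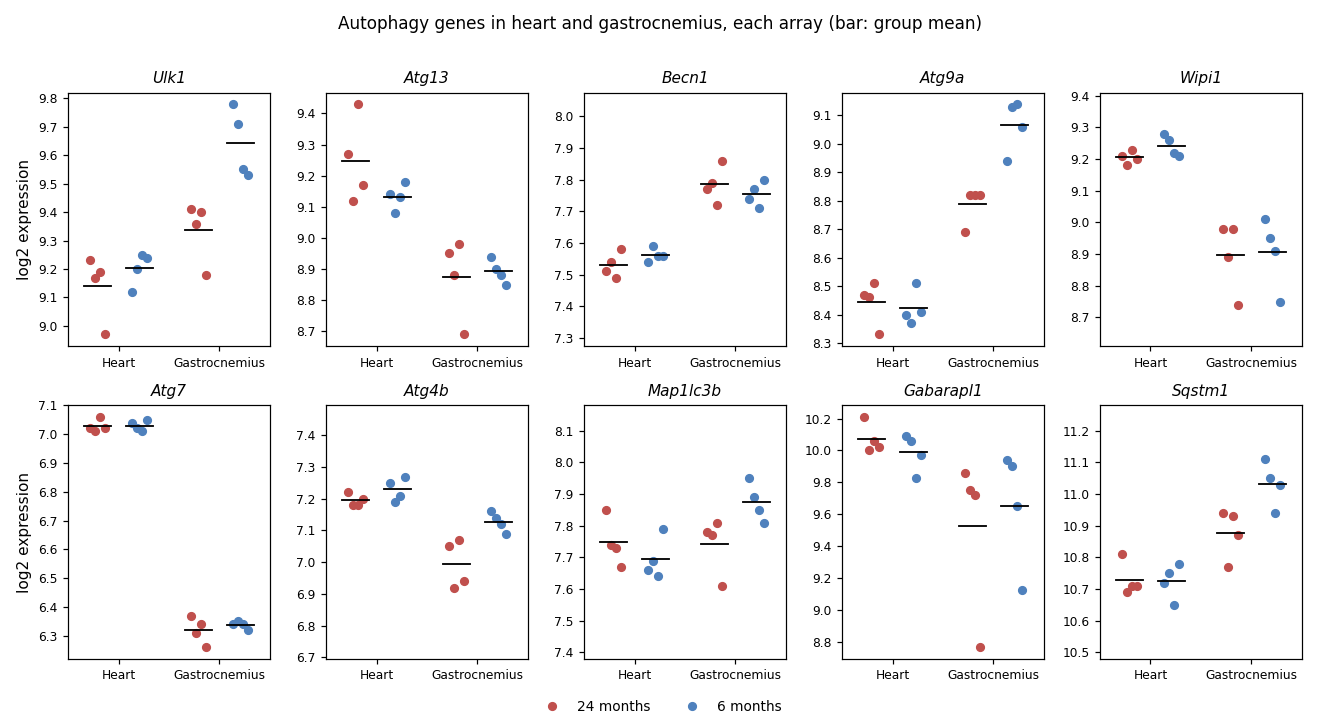
Log2 expression (vertical axis, scaled per gene) of the 10 autophagy genes in each heart and gastrocnemius array at 24 months (red) and 6 months (blue), 4 arrays per group, with bars at group means. Heart groups overlap for every gene, whereas in gastrocnemius Ulk1, Atg9a and Atg4b do not overlap, and single Gabarapl1 arrays lie at 8.77 and 9.13.

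The liver values changed when the arrays were rescaled, and several marker lists differed between the ages in liver. The members' median deviation from the 6-month mean was -0.20, -0.10 and -0.10 in the 3 livers of 24 months. When the liver arrays were brought to a common distribution, the median of the 10 members was -0.03 by quantile normalization and -0.03 by cyclic loess, and Wipi1 was -0.36 (adjusted p = 0.0881) and -0.37 (adjusted p = 0.0780). Lists with a higher mean in each 24-month than in each 6-month liver were T and NK cells (5.98 to 6.30 against 5.71 to 5.89, 7 of 7 markers measured), B and plasma cells (6.15 to 6.71 against 5.72 to 6.03, 6 of 7), neutrophils (5.77 to 6.00 against 5.42 to 5.63, 6 of 6), adipocytes (6.39 to 6.66 against 5.88 to 6.07, 6 of 7), Schwann cells (6.51 to 6.56 against 6.18 to 6.27, 4 of 6) and skeletal myofibres (5.98 to 6.18 against 5.78 to 5.84, 8 of 8). No marker of these lists passed the adjusted threshold, and their part in the members' differences was not tested. The list means lay near or below the liver array medians of 6.47 to 6.62, so these are dim genes. The median age difference was 0.03 over all liver genes and -0.09 among the brighter ones. Leaving out single arrays changed the calls. Without replicate 3 of 24-month liver, Wipi1 (-0.50, adjusted p = 0.0182), Atg4b (-0.35, adjusted p = 0.0246) and Atg13 (-0.25, adjusted p = 0.0441) passed, as did 5073 genes in all, whereas leaving out any of the other 5 arrays left 0 to 12 genes and no member past the threshold. Without replicate 2 of 24 months, the array with the pancreas markers, Wipi1 was -0.41 (adjusted p = 0.172), Atg4b -0.23 and Atg13 -0.25.

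In gastrocnemius the members' median was -0.04 without replicate 4 of 24 months, and Ulk1 and Atg9a were then -0.25 (adjusted p = 0.219) and -0.29 (adjusted p = 0.183). The mean of the 5 measured fibroblast markers of 6 was 7.99 to 8.21 at 24 months and 8.20 to 8.46 at 6 months and that of the 6 endothelial markers 7.19 to 7.63 and 7.51 to 7.86, lists whose ranges overlap. The median differences of these lists were -0.37 and -0.27. At an unadjusted p under 0.05 in limma, 3 fibroblast markers were lower and 1 higher, and 4 endothelial markers were lower and 0 higher. Lists that did not overlap were macrophages (6.56 to 6.85 at 24 months and 6.45 to 6.48 at 6 months, 7 of 7 markers measured), Schwann cells (6.39 to 6.51 and 6.53 to 6.62, 4 of 6), atrial cardiomyocytes (6.68 to 6.80 and 6.39 to 6.54, 5 of 5) and exocrine pancreas (5.21 to 5.34 and 5.11 to 5.19, 6 of 7). None of these markers passed the adjusted threshold, and their part in the gastrocnemius values was not tested. Fitting gastrocnemius together with heart, which shares the spread of both tissues, put Atg9a (adjusted p = 0.0226) and Ulk1 (adjusted p = 0.0355) past the threshold at the same differences.

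The next question was whether the age difference itself differs between tissues on the same array type. Between liver and quadriceps, 0 of 10 members passed in limma, beside 0.0151% of all genes. At an unadjusted p under 0.05, 4 of 10 were lower (9.39% of all genes). That share was larger among the brighter genes, to which all 10 members belong, than among all genes. The median of this difference was -0.07 among the brighter genes, 0.02 over all genes and -0.14 for the members. Between heart and gastrocnemius 0 of 10 passed, beside 0.595%. Wipi1 had the lowest adjusted p of the first pair, 0.119, where its age difference was lower in liver than in quadriceps by -0.45 ± 0.13. Becn1, which separated the ages in opposite directions in these tissues, followed with -0.35 ± 0.11 (adjusted p = 0.132), and Atg4b with -0.34 ± 0.12 (adjusted p = 0.154). Atg7 had -0.25 ± 0.10 and Ulk1 0.27 ± 0.13. Among the 24-month quadriceps arrays, replicate 1, the array with raised hepatocyte markers, had the highest value of every member but Wipi1. The part of those markers in these differences was not tested. Without replicate 3 of 24-month liver, Wipi1 was -0.51 (adjusted p = 0.0399) and Atg4b -0.41 (adjusted p = 0.0473), with 1462 genes past the threshold in all.

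Between heart and gastrocnemius, Atg9a had the lowest adjusted p, 0.0995, with an age difference 0.30 ± 0.08 higher in heart. Ulk1 had 0.24 ± 0.10 (adjusted p = 0.303), Map1lc3b 0.185 ± 0.08 and Sqstm1 0.16 ± 0.07, and these 4 were also the members with an unadjusted p under 0.05, all in the higher direction (8.83% of all genes). Without replicate 1 of 6-month gastrocnemius, Atg9a was 0.34 with an adjusted p of 0.0447, and 318 genes passed in all. The intervals are wide relative to the values: that of Atg9a ran from 0.13 to 0.47 and that of Gabarapl1 from -0.39 to 0.82.

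Between tissues, only 6-month arrays, called young here, were compared. Young liver and quadriceps differed in all 10 members, beside 69.8% of all genes, and young heart and gastrocnemius in 9 of 10, beside 77.4%, so most genes on either array type differed between tissues and these counts do not set the members apart. Within the members the directions were mixed. Liver was higher than quadriceps in 4 of 10 (41.6% of all genes), Atg7, Gabarapl1, Atg4b and Becn1, and lower in 6 of 10 (28.1%), Atg9a, Wipi1, Ulk1, Atg13, Sqstm1 and Map1lc3b. Heart was higher than gastrocnemius in 4 of 10 (62.2%) and lower in 5 of 10 (15.2%).

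Atg7 had the largest difference, with 9.40, 9.23 and 9.33 in young liver, against 7.49, 7.45 and 7.46 in young quadriceps. That is 1.85 ± 0.07, or 3.61-fold (adjusted p = 1.66e-08). Atg9a had 8.72, 8.74 and 8.74 in liver, against 10.03, 9.97 and 10.02 in quadriceps, a difference of -1.27 ± 0.06, or 2.42-fold (adjusted p = 1.18e-07). Wipi1 differed by -1.23 ± 0.09 (2.35-fold, adjusted p = 1.89e-06) and Ulk1 by -1.04 ± 0.09 (2.05-fold, adjusted p = 5.97e-06). The RNA of Atg9a, Wipi1 and Ulk1 was thus lower in liver, whereas Atg2a (1.37) and Vmp1 (1.08) were higher there. Atg2a and Vmp1 act on the membrane, as Atg9a and Wipi1 do. Atg13 differed by -0.75 ± 0.07, Sqstm1 by -0.64 ± 0.06 and Map1lc3b by -0.49 ± 0.08. The second Map1lc3b probe set gave -0.56 ± 0.08.

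The RNAs of the 2 ATG8 proteins went opposite ways between liver and quadriceps. Gabarapl1 had 11.99, 11.98 and 11.96 in young liver, against 10.87, 11.28 and 11.58 in young quadriceps, a difference of 0.73 ± 0.15 (adjusted p = 0.00205). The 3 livers lay close together while the quadriceps arrays were spread out, all of them below the livers. Atg4b was higher in liver by 0.64 ± 0.07 and Becn1 by 0.31 ± 0.08 (adjusted p = 0.00502). The higher call of Becn1 was lost when arrays were brought to a common distribution, at 0.01 (adjusted p = 0.935) by quantile normalization and 0.15 (adjusted p = 0.103) by cyclic loess, and that of Gabarapl1 at 0.39 (adjusted p = 0.0568) by quantile normalization. The median of all genes in this comparison was 0.10 as deposited, -0.04 after quantile normalization and 0.00 with arrays centred, and the signs of all 10 members were kept under each.

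Between heart and gastrocnemius, Atg7 had the largest difference of the 10 in the values as deposited, and Atg9a a larger one with arrays centred (-1.05, with Atg7 at 0.285). Atg7 had 7.04, 7.02, 7.01 and 7.05 in young heart, against 6.34, 6.35, 6.34 and 6.32 in young gastrocnemius, a difference of 0.69 ± 0.03, or 1.62-fold (adjusted p = 8.51e-08). Atg9a had 8.40, 8.37, 8.51 and 8.41 in heart, against 8.94, 9.13, 9.14 and 9.06 in gastrocnemius, or -0.645 ± 0.06 (adjusted p = 3.74e-06). Ulk1 had 9.12, 9.20, 9.25 and 9.24 in heart, against 9.78, 9.71, 9.55 and 9.53 in gastrocnemius, or -0.44 ± 0.06 (adjusted p = 0.000139). For these 3 genes no heart array overlapped a gastrocnemius array, and Sqstm1 (-0.31 ± 0.05), Becn1 (-0.19 ± 0.04) and Map1lc3b (-0.18 ± 0.05) were also lower in heart without overlap.

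The median of all genes in this comparison was 0.265 as deposited, -0.06 after quantile normalization, -0.04 after cyclic loess and -0.14 with arrays centred, so the remaining directions depend on the scaling. Atg13 (0.24 ± 0.04) and Wipi1 (0.34 ± 0.06) were higher in heart as deposited, after quantile normalization and after cyclic loess, and turned to -0.17 (adjusted p = 0.00324) and -0.07 (adjusted p = 0.321) with arrays centred. Atg4b was higher by 0.10 ± 0.04 (adjusted p = 0.0316) as deposited and turned to -0.15, -0.12 and -0.305 under quantile normalization, cyclic loess and centring. Its call was also lost without replicate 1 (0.10, adjusted p = 0.0678) or 4 (0.09, adjusted p = 0.0843) of young heart and without replicate 2 (0.11, adjusted p = 0.0532), 3 (0.10, adjusted p = 0.0578) or 4 (0.09, adjusted p = 0.0788) of young gastrocnemius. Gabarapl1 differed by 0.33 ± 0.16 (adjusted p = 0.0819) and passed without replicate 1 (0.43, adjusted p = 0.0387) or replicate 2 (0.41, adjusted p = 0.0491) of young gastrocnemius, was 0.16 (adjusted p = 0.133) without replicate 4 of it, and turned to -0.075 (adjusted p = 0.695) with arrays centred. Atg7 stayed higher and Atg9a, Ulk1, Sqstm1, Becn1 and Map1lc3b stayed lower in heart under all 17 alternatives.

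**Figure D4:**
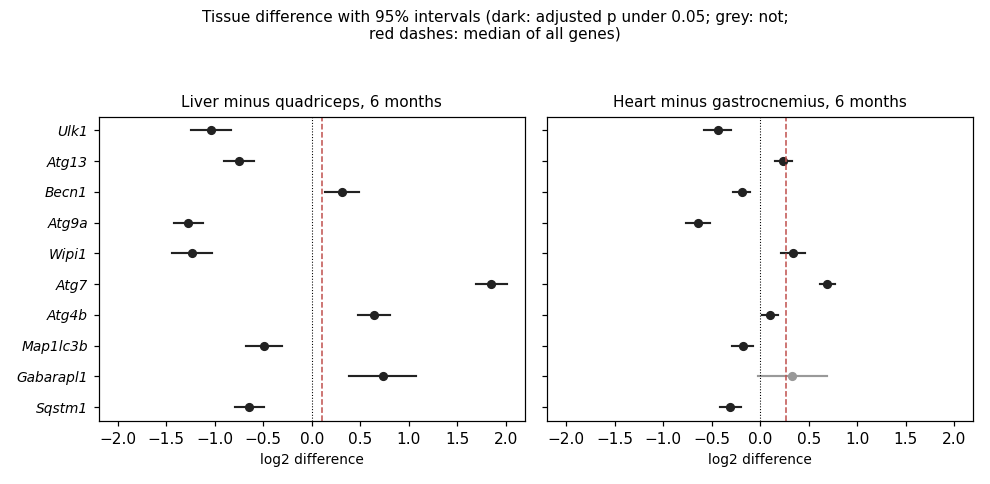
Difference between young tissues on the log2 scale (horizontal axis) for the 10 autophagy genes (rows), liver minus quadriceps (left) and heart minus gastrocnemius (right); points are limma estimates, lines 95% intervals, dark where the adjusted p is under 0.05, and red dashes the median of all genes. Atg7 lies at 1.85 and 0.69 and Atg9a at -1.27 and -0.645.

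The rest of the pathway was followed in lists of other autophagy genes, of its regulators and of lysosome genes, of which 45 of 46, 21 of 21 and 17 of 20 were measured in liver and quadriceps and 44, 20 and 16 in heart and gastrocnemius. No gene of these lists passed the adjusted threshold for age in any of the 4 tissues. In liver the other autophagy genes had a median of -0.11, beside -0.09 for the brighter liver genes, to which all 45 belong. At 24 months 41 of 45 were lower (45.1% of all genes and 66.1% of the brighter ones). In that direction 18 of 45 did not overlap (17.4% of all and 29.8% of the brighter genes). The medians of the other autophagy genes were -0.02 in quadriceps, -0.02 in heart and -0.04 in gastrocnemius. At an unadjusted p under 0.05 the other autophagy genes counted 11 of 45 lower (14.4% of all genes and 24.3% of the brighter ones) and 0 higher (18.4% of all) in liver. In quadriceps 4 of 45 were lower (3.26% of all and 4.23% of the brighter genes) and 1 higher (3.8% of all). They counted 0 of 44 in heart (5.99% of all genes in either direction). In gastrocnemius 10 of 44 were lower (9.05% of all and 13.2% of the brighter genes) and 4 higher (7.44% of all).

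Among these genes, those of smallest p in liver act in lipid transfer and conjugation. Atg2a, the bridge that carries lipid to the growing membrane, averaged 8.69 ± 0.02 at 24 months and 9.04 ± 0.05 at 6 months (SD, n = 3 each), a difference of -0.34 ± 0.07 (adjusted p = 0.0543). Tmem41b, a scramblase of the endoplasmic reticulum, differed by -0.45 ± 0.14 and Atg4c, a protease of the Atg4b family, by -0.35 ± 0.11. In gastrocnemius the smallest p-values belonged to Atg4d (-0.245 ± 0.06, adjusted p = 0.126), Epg5 (-0.16 ± 0.04), a tether for fusion with the lysosome, and Wdfy3 (-0.16 ± 0.05), which links p62 bodies to the membrane. Quadriceps Uvrag, a beclin 1 partner, differed by 0.25 ± 0.07 (adjusted p = 0.567), Tmem41b by -0.22 ± 0.09 and the mitophagy receptor Bnip3 by -0.23 ± 0.09. In heart Nrbf2 (0.09 ± 0.04), Map1lc3a (0.13 ± 0.07) and Wdr45 (-0.07 ± 0.05) led, with adjusted p-values of 0.872 or more.

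Among the regulators in liver, Mitf, a relative of TFEB, had 7.08, 7.07 and 7.27 at 24 months, against 7.60, 7.73 and 7.66 at 6 months, a difference of -0.52 ± 0.09 (adjusted p = 0.0522). Ddit4, an inhibitor of mTORC1 that is induced by stress and fasting, had 7.62, 7.40 and 7.12 at 24 months, against 6.63, 6.89 and 6.86 at 6 months, or 0.59 ± 0.13 (adjusted p = 0.0552). Neither pair of groups overlapped. The proton pump subunit Atp6v1d (-0.34 ± 0.10) and the lysosomal calcium channel Mcoln1 (-0.27 ± 0.08) had the smallest p of the lysosome genes in liver. In gastrocnemius these were Atp6v1h (0.255 ± 0.06, adjusted p = 0.124), another pump subunit, and the membrane protein Lamp2 (0.18 ± 0.05), both with higher means at 24 months, while the regulators Prkag1 (-0.21 ± 0.08), an AMP-activated kinase subunit, and Tfeb (-0.11 ± 0.05) had lower ones.

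In quadriceps the protease Ctsd (-0.25 ± 0.07) and the cholesterol transporter Npc1 (-0.39 ± 0.12) had lower means at 24 months without overlap, as did Rheb (-0.17 ± 0.07), the activator of mTORC1, and Tfeb a higher one (0.18 ± 0.07), with adjusted p-values of 0.567 or more. In heart Mitf differed by -0.18 ± 0.05 (adjusted p = 0.434) without overlap, and Ddit4 (0.39 ± 0.22), Lamp2 (-0.08 ± 0.06) and Ctsl (-0.10 ± 0.06) overlapped.

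Young liver and quadriceps differed in 38 of the 45 other autophagy genes (69.8% of all genes), with 26 higher (41.6%) and 12 lower (28.1%) in liver. That split was 17 higher and 19 lower after quantile normalization, 21 and 13 after cyclic loess and 23 and 12 with arrays centred. Vamp8, a SNARE protein of autophagosome fusion, averaged 10.34 ± 0.10 in liver and 8.13 ± 0.05 in quadriceps (SD, n = 3 each), a difference of 2.21 or 4.64-fold. Retreg1, a receptor for autophagy of the endoplasmic reticulum, averaged 8.86 ± 0.16 in liver and 10.89 ± 0.14 in quadriceps, a difference of -2.04. The conjugation genes Atg5 (1.58 ± 0.08) and Atg3 (1.45 ± 0.08) were higher in liver along with Atg7, as were Atg2a (1.37 ± 0.07), the ferritin receptor Ncoa4 (1.37 ± 0.09) and Vmp1 (1.08 ± 0.07), while the receptor Calcoco1 (-1.29 ± 0.08) was lower.

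Young heart and gastrocnemius differed in 37 of 44 (77.4% of all genes), with 22 higher (62.2%) and 15 lower (15.2%) in heart. That split was 14 higher and 19 lower after quantile normalization, 14 and 18 after cyclic loess and 5 and 30 with arrays centred. Atg4a, another protease of the Atg4b family, averaged 7.03 ± 0.03 in heart and 8.62 ± 0.07 in gastrocnemius (SD, n = 4 each), a difference of -1.59 or 3.02-fold. Nrbf2 (-0.96 ± 0.05), a subunit of the beclin 1 complex, and the fusion genes Snap29 (-0.78 ± 0.05) and Epg5 (-0.69 ± 0.04) were lower in heart. Atg10 (0.73 ± 0.04), an E2-like enzyme, Uvrag (0.59 ± 0.04), Pik3r4 (0.56 ± 0.04) and Vamp8 (0.56 ± 0.04) were higher. All 8 kept these directions under the 17 alternatives.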

How the data were processed

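Total RNA was measured on 28 arrays in 8 groups of tissue and age. The deposited values were log2 expression, 1 per probe set and array, made with RMA per the submitters' processing notes. The RMA version, a genome build and which arrays were normalized together are all things not given in the sources used here. By the platform annotation, 21797 of the 28944 probe sets for liver and quadriceps named 1 gene, 1613 named several and 5534 named none. The table for heart and gastrocnemius held 65956, of which 30604 named 1, 2146 several and 33206 none. Probe sets with several symbols or none were left out, 23 and 1135 symbols were updated through RefSeq, and the probe set of highest mean stood for a gene, which left 19928 and 30063 genes. Array data give no read depth, so precision is limited by how many arrays there are.

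Each tissue was fitted alone with limma 3.58.1 (lmFit and eBayes, R 4.3.3), 24 minus 6 months, two-sided, with Benjamini-Hochberg adjustment over all genes and a threshold of 0.05. Differences of age differences used all arrays of a table, and tissue comparisons its 6-month arrays. Errors after ± are standard errors of a difference unless called SD. Tissues on different array types were never compared. All 10 members are named. Of other autophagy genes the 3 of smallest p per tissue, and up to 8 past the threshold per comparison, are named, and of regulators and lysosome genes the 2 of smallest p per tissue. The 3 markers of highest mean stand for their own tissue. Members and lists were chosen with earlier results of these data known. Alternatives were quantile normalization, cyclic loess, centring of each array, removal of dim genes, tests of every probe set, an intensity trend in the prior, a joint fit of all arrays in a table, array weights, a block for the replicate number, and the omission of each array in turn. On simulated data for the liver comparison, with 19928 genes, the fit recovered 91 of 100 genes changed by 1 on the log2 scale and 44 of 100 changed by 0.5. For the gastrocnemius comparison, with 30063 genes, it recovered 99 and 78 of 100. The members' age differences, the largest being Wipi1 in liver at -0.44, were smaller than both simulated sizes. These recoveries therefore do not show how often differences of that size would be found.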

Additional observations from a re-analysis of the deposited data

Results flagged for a closer look

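Among the 168 groups of 4 arrays examined for the named genes, 12 held 1 array far from the other 3, where chance gives about 5% of groups. Groups of 3, which include all liver and quadriceps groups, were not examined in this way. Among the 10 autophagy genes, Gabarapl1 in replicate 4 of 24-month gastrocnemius had 8.77, with the other 3 arrays at 9.72 to 9.86. Atg9a in replicate 1 of 24-month gastrocnemius had 8.69, with each of the other arrays at 8.82. Sqstm1 in replicate 1 of 24-month heart had 10.81, above the 10.69 to 10.71 of the others.

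Among the other genes named, replicate 3 was the odd array in 6 groups. In 24-month gastrocnemius it was high for Wdfy3 (7.56, others 7.43 to 7.45) and Atg10 (7.34, others 7.13 to 7.16). In 6-month gastrocnemius it was high for Atg10 (7.18, others 7.09 to 7.10) and low for Atp6v1d (9.48, others 9.69 to 9.70). In 24-month heart it was high for Npc1 (8.72, others 8.54 to 8.55) and Pik3r4 (7.42, others 7.30 to 7.31). In 6-month arrays, Atg5 in replicate 4 (6.84, others 6.70 to 6.72) and Vamp8 in replicate 2 (6.73, others 6.64) of gastrocnemius and Atg4c in replicate 1 of heart (6.34, others 6.20 to 6.22) were high.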

How the results depend on the processing

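The count of genes past the threshold for age moved widely with the processing, and the cause was not tested. In liver 65 genes passed (28 higher and 37 lower at 24 months), with 8 after quantile normalization (4 higher, 4 lower), 2870 with arrays centred (355 higher, 2515 lower), 1819 with dim genes left out, 0 with every probe set tested, 2243 with an intensity trend, 3625 in the joint fit (1937 higher, 1688 lower) and 7897 with array weights. Of the 10 members, 0 passed as reported, 3 with arrays centred, 3 with dim genes left out, 2 with the trend, 3 in the joint fit and 3 with array weights. The other autophagy genes counted 0, and under the same settings 10, 2, 3, 4 and 17. The liver median of the members, -0.12, was -0.0268 under quantile normalization, -0.0325 by cyclic loess and -0.23 with arrays centred. In quadriceps 1 gene passed, with 9 after the dim filter, 18 with the trend, 15 in the joint fit and 8 with weights. In heart 2 passed, with 4 under quantile normalization, 1 centred, 20 after the dim filter, 14 with the trend, 25 in the joint fit and 4 with weights. In gastrocnemius 3 passed, with 1 centred, 58 after the dim filter, 9 with the trend, 829 in the joint fit, which also held 2 members and 2 other autophagy genes, and 89 with weights. No member passed for age in quadriceps or heart under any of the alternatives run. For the difference of age differences between liver and quadriceps, 3 genes passed, with 5 under quantile normalization, 196 centred, 10 by loess, 198 after the dim filter, 159 with the trend and 2523 with weights, the last with 3 members and 3 other autophagy genes. The members' median there, -0.14, was -0.0431 under quantile normalization, -0.0397 by loess and -0.245 centred. Between heart and gastrocnemius 179 passed (147 higher, 32 lower), with 113 under quantile normalization (69 higher, 44 lower), 100 by loess (61 higher, 39 lower), 353 after the dim filter and 739 with weights, the last with 1 member and 2 other autophagy genes. The members' median, 0.15, was 0.0620 and 0.0712 under quantile normalization and loess. For young liver against quadriceps the members' median of -0.57 was -0.85, -0.66 and -0.41 under quantile normalization, centring and loess, and the split of 8293 higher and 5608 lower genes became 6410 and 7524, 7059 and 6822, and 7187 and 6715. For young heart against gastrocnemius the median of -0.04 was -0.20, -0.45 and -0.21, and the split of 18687 higher and 4579 lower became 8015 and 11630, 6119 and 14777, and 8629 and 10871. There Atg4b turned to -0.15, -0.305 and -0.12, and Atg13 and Wipi1 to -0.17 and -0.07 with arrays centred. With 1 array left out, the genes past the threshold ranged from 0 to 5073 in liver (members 0 to 3, other autophagy genes 0 to 7), 0 to 0 in quadriceps, 0 to 5 in heart and 0 to 70 in gastrocnemius, where the members' median ranged from -0.16 to -0.0429. They ranged from 0 to 1462 between liver and quadriceps (members 0 to 2, other autophagy genes 0 to 1) and from 22 to 547 between heart and gastrocnemius (members 0 to 1, other autophagy genes 0 to 1). Whether replicate numbers pair the samples is not stated, and the following correlations cannot decide it. Same-numbered arrays of both ages had deviations correlated at -0.02 to 0.05 in liver, -0.04 to 0.16 in quadriceps and -0.22 to -0.002 in heart. In gastrocnemius 3 of 4 numbers correlated at 0.13, 0.21 and 0.30, and replicate 2 at -0.04. In replicate 4 of that muscle 9 of 10 members lay below the 6-month mean at 6 months and 9 of 10 at 24 months. The median deviation of all genes in these arrays was 0.005 and 0.02. In replicates 1, 2 and 3 the members below that mean were 2, 0 and 7 of 10 at 6 months and 5, 8 and 6 of 10 at 24 months. With the replicate number as a block, 0 genes passed for age in liver, quadriceps, heart and gastrocnemius and 15 for the liver and quadriceps difference. For young heart against gastrocnemius the block gave adjusted p = 0.0711 for Atg4b and 0.0444 for Gabarapl1. The number of arrays, 3 or 4 per group, limits the precision of all values.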

Other observations

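Ddit4, the inhibitor of mTORC1 named among the regulators, was singled out here after its values were seen, because it varied between arrays of one group in both skeletal muscles, as Gabarapl1 did. In gastrocnemius it had 6.93, 8.31, 8.09 and 7.76 at 24 months, against 7.34, 7.44, 9.33 and 9.44 at 6 months. In quadriceps it had 9.19, 7.91 and 8.70 at 24 months, against 7.83, 8.83 and 9.60 at 6 months. Its standard deviation within a group was 0.61 and 1.15 in gastrocnemius at 24 and 6 months and 0.65 and 0.89 in quadriceps. It was 0.39 and 0.38 in heart and 0.25 and 0.14 in liver. The 6-month quadriceps arrays ranked alike for Ddit4 and Gabarapl1, and the 24-month ones did not. Replicate 4 of 6-month gastrocnemius was highest for Ddit4 and lowest for Gabarapl1.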
